A study of Mus musculus with 24 samples.

Results

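The last 6 h of a pulse-chase of microRNAs (miRNAs) in mouse fibroblasts were examined by comparing labelled RNA purified after 12 h of chase with labelled RNA purified after 6 h. The libraries were chosen by their titles: 12 of the 24 libraries in the series held purified RNA from 6, 8, 10 or 12 h of chase, 1 library of each time from each of 3 experiments. The 6 libraries at 6 h and 12 h were compared within experiments, and the 6 libraries at 8 h and 10 h were used to follow the trend between them. All 12 were made from the immortal mouse embryonic fibroblast line 3T9, grown in DMEM with serum. The cells had received 300 µM 4-thiouridine (4SU) for 3 h and then 1 mM uridine, so the groups differed only in the hours of chase. The labels give no genotype, clone or passage. An extraction from cells without 4SU, present as a single library, served as the purification background, and single libraries of total RNA from unlabelled and from 4SU-pulsed cells show the level in all miRNAs of the cell.

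A mature miRNA is cut from a hairpin precursor, and one arm of the hairpin is kept by an Argonaute protein as the guide while the other is usually discarded. Guides bind messenger RNAs through the seed, the bases that follow the first base at the 5′ end, and repress them. Most guides persist for long in fibroblasts, but some are degraded quickly, in known cases when a target RNA pairs extensively with the miRNA. 4SU is built into RNA during the pulse and allows the RNA to be coupled to biotin and captured, and the uridine chase dilutes it, so the captured pool consists of progressively older molecules. Values are shares of this pool, given as CPM (counts scaled to a common library total), so a miRNA that is higher at 12 h gained share relative to the other labelled miRNAs, and no half-life was measured.

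The called miRNAs are shown first by sequence, because the comparison with relatives that share a seed turns on them. Mature sequences are from RefSeq (table build GRCm38.p6), written 5′ to 3′, with the seed, bases 2 to 8, in capitals. The risers included 1 member of each of 2 seed groups, shown here with the tested miRNAs whose sequence in the table has the same seed; miR-301b-3p, another tested member of the miR-130 and miR-301 family, is given by name.
miR-301a-3p: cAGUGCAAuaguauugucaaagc
miR-130a-3p: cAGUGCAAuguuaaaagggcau
miR-130b-3p: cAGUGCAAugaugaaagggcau
miR-148b-3p: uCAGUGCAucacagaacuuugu
miR-148a-3p: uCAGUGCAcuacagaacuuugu
miR-152-3p: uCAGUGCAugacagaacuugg
The other risers and the fallers with a sequence in the table each had a seed that no other tested miRNA with a sequence shared.
miR-186-5p: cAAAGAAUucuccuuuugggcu
miR-3061-3p: cUACCUUUgauaguccacugcc
miR-214-3p: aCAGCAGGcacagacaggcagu
miR-335-5p: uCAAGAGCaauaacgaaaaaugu
miR-671-5p: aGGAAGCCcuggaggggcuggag
miR-188-5p: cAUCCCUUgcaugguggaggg
Of the 414 miRNAs tested, 346 matched a sequence in the table, and miR-145a-5p, the other faller, is given by name.

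Depth, the summed miRNA count, was 1304174 to 5220817 at 6 h and 1133048 to 3281631 at 12 h, and in each experiment the 12 h library was the shallower of the 2. A level of 3 counts, taken as the floor, corresponded to 0.575 to 2.30 CPM at 6 h, 0.914 to 2.65 CPM at 12 h and 10.6 CPM in the negative extraction, which held 283922 counts. Levels in that extraction are given beside each called miRNA. They are shares of its own counts, so they do not give the amount of background in the labelled libraries. The part of this background in the changes was not tested. A code in the table's header, unexplained by the labels, was shared by the libraries of an experiment, so the experiment and this code cannot be told apart. The summed fibroblast markers took 182622 to 251810 CPM at 6 h and 199171 to 233278 CPM at 12 h, although miR-199b-5p was at most 1.68 CPM at 6 h and 2.13 CPM at 12 h. Of the markers of other cell types, the blood list summed to 223 to 563 CPM at 6 h and 266 to 543 CPM at 12 h, nearly all of it miR-486a-5p, with miR-142a-3p and miR-144-3p at 0. The epithelial list summed to 284 to 732 and 217 to 501 CPM, nearly all of it miR-205-5p, with miR-200a-3p at 0. Neural markers summed to 417 to 582 and 422 to 526 CPM, mostly miR-128-3p, and muscle markers to at most 14.1 and 9.47 CPM, mostly miR-206-3p. Of these non-fibroblast markers, 9 were tested and edgeR called 0, with 1 (miR-205-5p) at an unadjusted p below 0.05 and 0 called by DESeq2 or limma-voom.

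Between 6 h and 12 h the labelled miRNA pool changed little, with a few exceptions. Of 414 miRNAs tested, miR-301a-3p, miR-3061-3p, miR-186-5p and miR-148b-3p rose, and miR-145a-5p, miR-214-3p, miR-671-5p, miR-335-5p and miR-188-5p fell. The sizes ranged from a 2.20-fold rise of miR-301a-3p to a fall of miR-188-5p to 0.358 of its level at 6 h. These were 9 calls, or 2.17% of the miRNAs tested, with 4 up (0.966%) and 5 down (1.21%), at an adjusted p below 0.05 in edgeR's quasi-likelihood test with the experiment as a block. The log2 difference was smaller than 0.5 in size for 332 of the 414 miRNAs (80.2%), and its median size was 0.242. At an unadjusted p below 0.05 there were 23 higher and 27 lower miRNAs, and DESeq2 called 13 and limma-voom 12, each including the same 9. The log2 values of the 9 had the same sign in all 3 experiments, against 139 of the 414 tested. This agreement is not separate support, because the blocked test of these same libraries favours it.

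**Figure D1:**
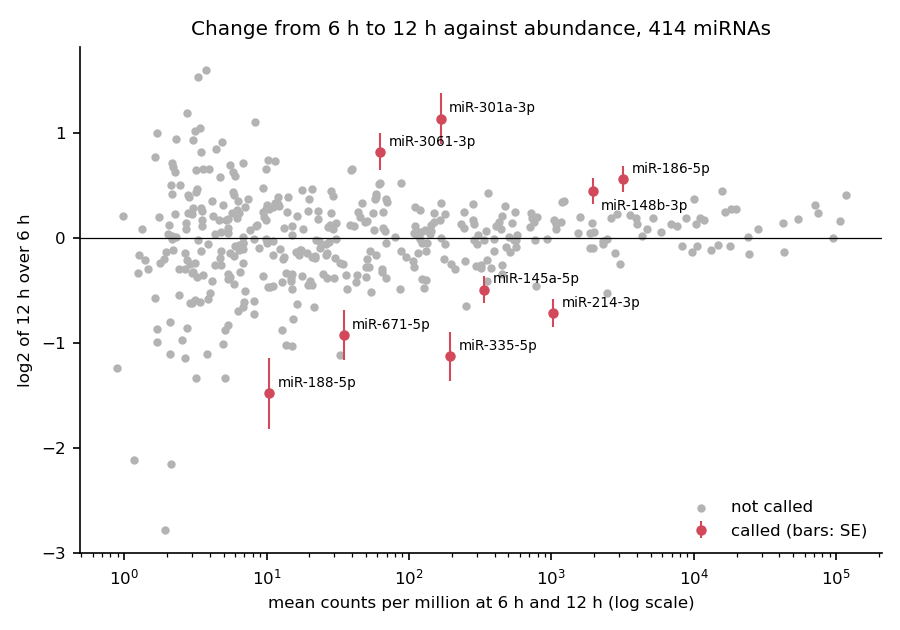
The log2 ratio of 12 h to 6 h (vertical axis) is plotted against the mean CPM over the 6 libraries at 6 h and 12 h (log scale) for 414 miRNAs, with the 9 called miRNAs in red and bars for their standard errors. The 9 called miRNAs have mean levels from that of miR-188-5p, the lowest, to that of miR-186-5p, the highest. Most of the most abundant miRNAs lie close to 0, and miR-92a-3p lies at 0.41.

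These calls rested on the pairing by experiment and on few libraries. Without the experiment as a block edgeR called 0. Leaving out the 12 h library of experiment 3 also gave 0 calls, with adjusted p values from 0.0506 for miR-214-3p to 0.259 for miR-671-5p among the 9, while leaving out that of experiment 1 or 2 gave 9 and 11. Leaving out the 6 h library of experiment 1, 2 or 3 gave 3, 3 and 2 calls, all among the 9, and leaving out experiment 1, 2 or 3 entirely gave 5, 14 and 0. With each library thinned to 1133048 counts, the depth of the shallowest, 5 of the 9 were called (miR-301a-3p, miR-186-5p, miR-145a-5p, miR-214-3p and miR-335-5p). The scaling moved the balance: the median log2 difference of all miRNAs was 0.01 with TMM, -0.14 with total counts and 0.12 with upper-quartile scaling, and the calls were 4 up of 9, 2 up of 13 and 6 up of 9. The directions of the 9 were the same under each of these scalings.

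miR-301a-3p, a guide of the miR-130/301 family encoded in an intron of Ska2 (GRCm38, chr11:87113004-87113089), had the largest fitted rise among the 9 called miRNAs. Its level was 183, 132 and 50.9 CPM at 6 h in experiments 1, 2 and 3 and 215, 274 and 150 CPM at 12 h. At 8 h it was 214, 219 and 42.9 CPM and at 10 h 355, 280 and 82.0 CPM. Every experiment was higher at 12 h than at 6 h, but the levels of the groups overlapped because experiment 3 lay below the others. The fitted log2 difference was 1.14 (SE 0.243, edgeR adjusted p 0.00737), with experiment differences of 0.43, 1.10 and 1.74, and the 95% interval of the fold was 1.59 to 3.06. The negative extraction held 141 CPM of it, from 40 counts, and total RNA held 1676 CPM in unlabelled and 3036 CPM in 4SU-pulsed cells, above every late labelled library. Its relatives with the same seed had smaller differences that were not called: 0.34 (SE 0.118, edgeR adjusted p 0.164) for miR-130a-3p and 0.24 (SE 0.119, adjusted p 0.394) for miR-130b-3p. miR-301b-3p, of the same family, had a log2 difference of 0.18 (SE 0.316, edgeR adjusted p 0.858). The difference between the relatives was not tested. The other arm, miR-301a-5p, had a log2 difference of -0.35 (edgeR adjusted p 0.624).

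The composition of miR-301a-3p moved along with its level. The deposited counts divide each miRNA into isoform classes: the canonical sequence, trimmed forms, extensions that match the hairpin (templated) and additions that do not (non-templated). The canonical form took 75.5, 76.7 and 80.5% of its counts at 6 h, 82.9, 84.6 and 84.8% at 8 h, 86.9, 89.2 and 88.5% at 10 h and 89.4, 90.6 and 92.3% at 12 h. The share was higher at each later time in every experiment, and the groups at 6 h and 12 h did not overlap. Its 3′ non-templated forms went from between 12.4 and 17.4% at 6 h to 5.52, 7.74 and 2.64% at 12 h, mainly in the class of mixed additions. In the negative extraction the canonical share was 85.0%, and in total RNA 87.8% and 83.3%. This miRNA was singled out among 19 whose composition was listed after the values were seen, so no test is given. On canonical counts alone its log2 difference was 1.41 (edgeR adjusted p 0.00102).

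miR-3061-3p lies in an exon of Ppp2ca, in the annotated UTR, which encodes a catalytic subunit of protein phosphatase 2A (chr11:52126746-52126836). Its level was 44.2, 48.3 and 54.2 CPM at 6 h and 80.4, 73.3 and 76.2 CPM at 12 h. All 3 libraries at 12 h were above all 3 at 6 h, and the 6 libraries at 8 h and 10 h were between 57.4 and 94.4 CPM. The log2 difference was 0.82 (SE 0.176, edgeR adjusted p 0.00737; 1.77-fold), and the negative extraction held 42.3 CPM from 12 counts. An exon of the lincRNA 9430098F02Rik overlaps the hairpin on the opposite strand, and the other arm, miR-3061-5p, had a log2 difference of -0.25 (adjusted p 0.898).

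miR-186-5p, from an intron of Zranb2 (chr3:157544279-157544349), was the most abundant of the called miRNAs. It measured 3350, 2455 and 2450 CPM at 6 h and 4353, 3408 and 3197 CPM at 12 h, and its mean was higher at each later time. The differences within experiments were alike, from 0.52 to 0.58 on the log2 scale, although the levels of the groups overlapped because experiment 1 was higher throughout. The fitted log2 difference was 0.56 (SE 0.121, edgeR adjusted p 0.00737; 1.48-fold), and with total counts as the scale the adjusted p was 0.0795. Total RNA held 5833 and 8505 CPM, above every late labelled library, and the negative extraction 3068 CPM.

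miR-148b-3p, from an intron of Copz1 (chr15:103285125-103285221), belongs to a family known to repress the DNA methyltransferase Dnmt1. It measured 1919, 1524 and 1797 CPM at 6 h and 2566, 1739 and 2162 CPM at 12 h, higher in each experiment with overlapping groups. The log2 difference was 0.45 (SE 0.121, edgeR adjusted p 0.0473), close to the threshold. It was 0.30 with total counts as the scale (adjusted p 0.232), 0.28 when the library of experiment 1 at 12 h was left out (adjusted p 0.372) and 0.28 without experiment 1 (adjusted p 0.532). miR-148a-3p and miR-152-3p, which have the same seed, had log2 differences of -0.02 (edgeR adjusted p 0.970) and -0.26 (adjusted p 0.394), and the other arm miR-148b-5p one of -0.04 (adjusted p 0.969). Most counts of miR-148b-3p were in the class of 3′ U additions, 76.7% ± 1.88 at 6 h and 76.5% ± 0.99 at 12 h (SD, n = 3), so its level mostly reports that form. This share was similar in the negative extraction, 78.1%, and in total RNA of unlabelled and 4SU-pulsed cells, 74.2 and 72.3%. The annotated 3′ end that sets the class is not given in the sources used here. The level of miR-148b-3p in the negative extraction was 2205 CPM.

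**Figure D2:**
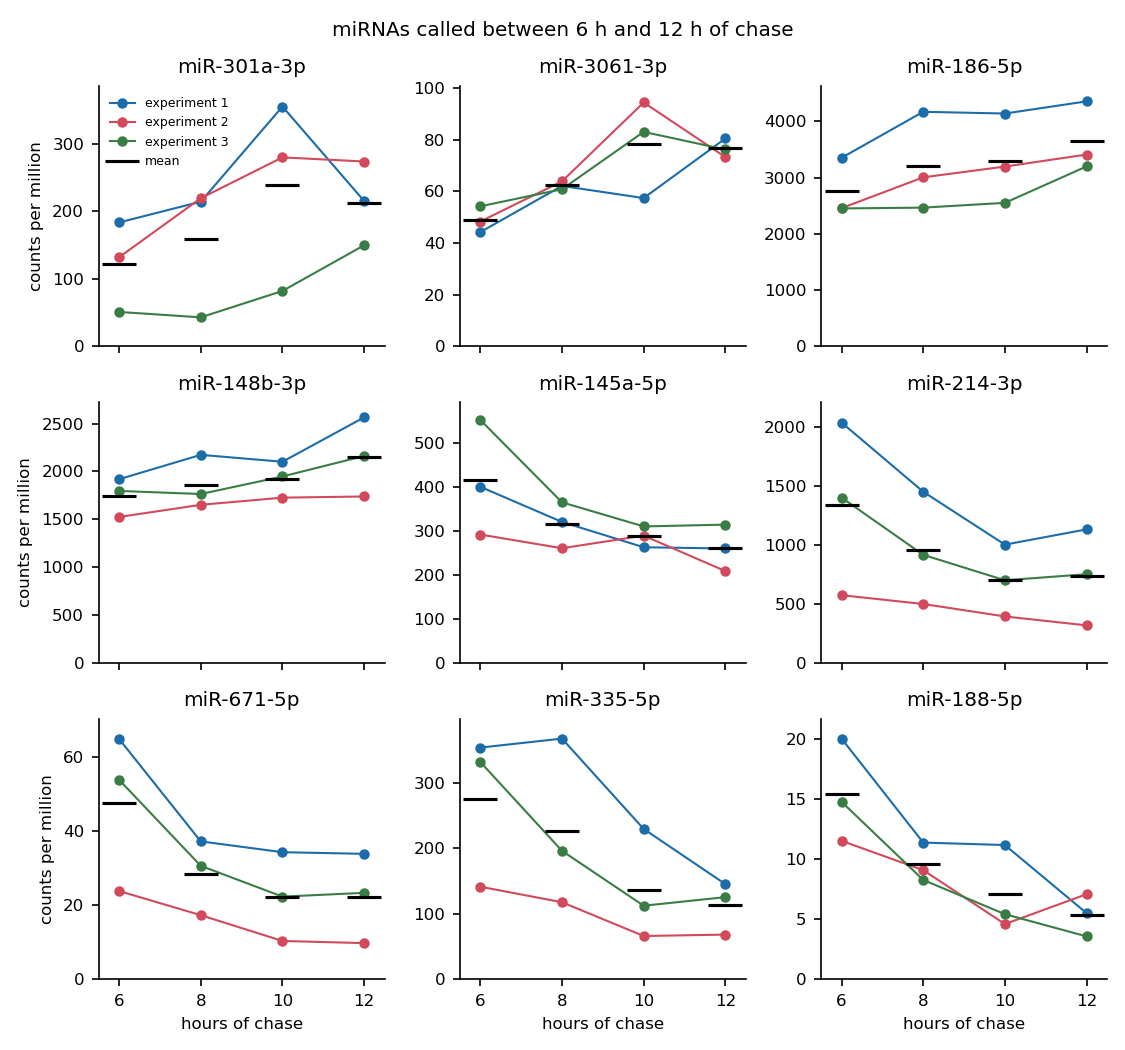
CPM (vertical axes, from 0) of the 9 called miRNAs in each of the 12 late libraries against hours of chase, with a line for each experiment and a black bar for the mean of 3. The lines of an experiment run roughly parallel for miR-186-5p and miR-214-3p, experiment 3 is lowest throughout for miR-301a-3p, and groups at 6 h and 12 h are apart for miR-3061-3p and miR-188-5p.

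Among the fallers, miR-335-5p is encoded within an intron of Mest, an imprinted gene (chr6:30741299-30741396). Its level was 354, 141 and 332 CPM at 6 h, 367, 117 and 196 CPM at 8 h, 229, 65.8 and 112 CPM at 10 h and 145, 68.0 and 125 CPM at 12 h. It was lower at 12 h in every experiment, and the groups overlapped only through experiment 2, which was low at both times. The log2 difference was -1.13 (SE 0.229, edgeR adjusted p 0.00737), to 0.457 of the level at 6 h, and the 3 experiments had similar differences. The other arm, miR-335-3p, had a log2 difference of -0.46 (adjusted p 0.211) and was called lower over the 4 times, at -0.08 log2 per hour (adjusted p 0.0487). The share of miR-335-5p in the negative extraction, 257 CPM, was above its share in all 3 libraries at 12 h.

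miR-214-3p, a mesenchymal miRNA in an exon of the noncoding transcript Dnm3os, opposite an intron of Dnm3 (chr1:162223368-162223477), measured 2037, 573 and 1401 CPM at 6 h and 1131, 317 and 750 CPM at 12 h. Experiment 2 was lowest at both times, so the groups overlapped, but the log2 differences within experiments, -0.65, -0.80 and -0.70, were close to each other. The fitted log2 difference was -0.71 (SE 0.136, edgeR adjusted p 0.00737). Its other arm, miR-214-5p, had a log2 difference of 0.00 (adjusted p 0.985). Levels of 990 CPM in the negative extraction and of 851 and 737 CPM in total RNA were within the range of the libraries at 12 h.

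miR-145a-5p, which is known from smooth muscle and other mesenchymal cells, measured 400, 291 and 552 CPM at 6 h and 260, 208 and 314 CPM at 12 h. It was lower at 12 h in each experiment, with 1 library at 12 h above the lowest at 6 h, and the log2 difference was -0.49 (SE 0.132, edgeR adjusted p 0.0473). With upper-quartile scaling the adjusted p was 0.125. miR-143-3p, made from the same primary transcript, had a log2 difference of 0.00 (SE 0.136, adjusted p 0.985), and the other arm miR-145a-3p one of -0.48 (adjusted p 0.318). In the negative extraction miR-145a-5p measured 166 CPM, from 47 counts.

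miR-671-5p lies in a coding exon of Chpf2, with an exon of Smarcd3 on the opposite strand (chr5:24592114-24592211). It measured 64.9, 23.8 and 53.8 CPM at 6 h and 33.8, 9.71 and 23.3 CPM at 12 h, lower in each experiment with overlapping groups. The log2 difference was -0.93 (SE 0.239, edgeR adjusted p 0.0387), and most of the difference in mean CPM lay between 6 h and 8 h, when it measured 37.2, 17.3 and 30.6 CPM. With upper-quartile scaling the adjusted p was 0.0611, and on canonical counts alone the log2 difference was -2.34 (adjusted p 0.0670). The other arm, miR-671-3p, had a log2 difference of -0.02 (adjusted p 0.976), and the negative extraction held 56.4 CPM of miR-671-5p from 16 counts.

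miR-188-5p, one of a cluster of miRNAs in an intron of Clcn5 on the X chromosome (chrX:7247989-7248056), was the least abundant called miRNA. It had 95, 15 and 77 counts at 6 h, or between 11.5 and 20 CPM, and 18, 8 and 9 counts at 12 h, or 5.49, 7.06 and 3.55 CPM. All 3 libraries at 12 h were below all 3 at 6 h. The log2 difference was -1.48 (SE 0.337, edgeR adjusted p 0.0123), and after thinning to the shallowest depth it was -0.97 (adjusted p 0.216). Together with miR-3061-3p this made 2 of the 9 called miRNAs whose CPM ranges at 6 h and 12 h did not overlap, against 28 (6.76%) of all those tested. In the negative extraction it had 1 count.

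The intermediate times were used to ask whether these changes ran through the late chase. The slope over 6, 8, 10 and 12 h was called for 12 miRNAs (2.9% of those tested), 4 up (0.966%) and 8 down (1.93%), and included all 9, with 67 miRNAs at an unadjusted p below 0.05. These libraries include the 6 already compared, so the slope is not independent of them. Slopes of the risers were 0.20 for miR-301a-3p (edgeR adjusted p 0.00113), 0.14 for miR-3061-3p, 0.09 for miR-186-5p and 0.07 log2 per hour for miR-148b-3p. Those of the fallers ran from -0.08 for miR-145a-5p to -0.25 log2 per hour for miR-188-5p, and miR-335-5p had the smallest adjusted p (4.31e-05). The additional calls were miR-335-3p, miR-669a-3p (-0.21 log2 per hour, adjusted p 0.0277) and miR-466d-3p (-0.18 log2 per hour, adjusted p 0.0310), named after their values were seen. Without the block the slope was called for 0 miRNAs, and with total counts as the scale for 30, of which 3 rose. Leaving out experiment 2 or 3 gave 19 and 5 calls.

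The libraries at 8 h and 10 h are not the ones contrasted between 12 h and 6 h, and gave a check of direction. They were part of the same fit and shared its scaling, experiment block and estimate of the spread, so the check is not fully separate. All 9 called miRNAs had the same sign from 8 h to 10 h as from 6 h to 12 h, against 271 of 414 miRNAs tested (65.5%). edgeR called 0 miRNAs (0.0%) between 8 h and 10 h, with 14 at an unadjusted p below 0.05 and 0 by DESeq2 or limma-voom. Of the 9, miR-335-5p (log2 -0.72, SE 0.221), miR-301a-3p (0.68, SE 0.237) and miR-214-3p (-0.37, SE 0.135) were among those 14, each with an adjusted p of 0.954. The other 6 had log2 values of 0.07 to 0.36 in size with wide errors, such as -0.36 (SE 0.317) for miR-188-5p.

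**Figure D3:**
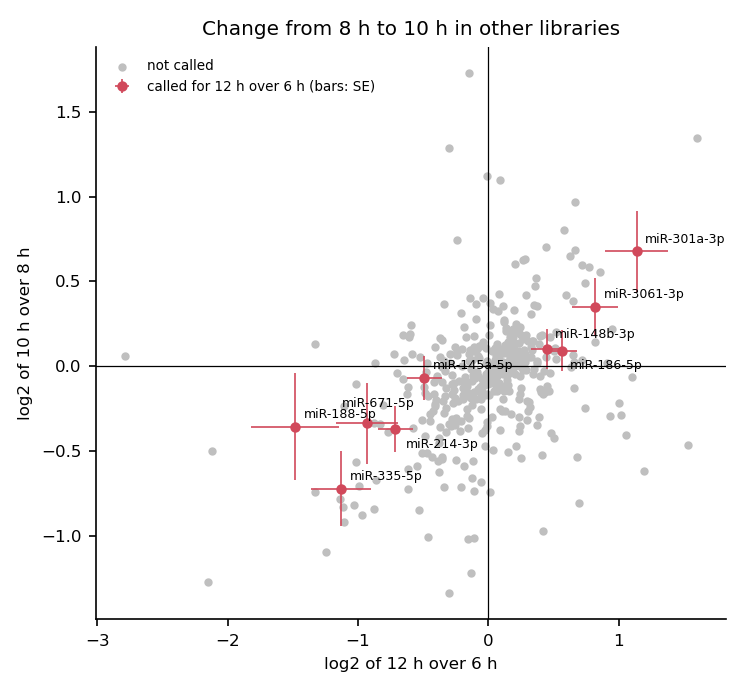
The log2 ratio of 10 h to 8 h (vertical axis) is plotted against the log2 ratio of 12 h to 6 h (horizontal axis) for 414 miRNAs, with the 9 called miRNAs in red and bars for standard errors. All 9 lie in the lower left or upper right corner of the axes through 0, and miR-335-5p and miR-301a-3p lie farthest from 0 on the vertical axis among them.

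Most of the 10 most abundant miRNAs changed little in share, and the largest difference was that of miR-92a-3p, the most abundant. Of the 10 most abundant, edgeR called 0, with 2 at an unadjusted p below 0.05 (miR-92a-3p and miR-27b-3p), and log2 differences from -0.15 for miR-99b-5p to 0.41 for miR-92a-3p. miR-92a-3p, the main product of the miR-17~92 cluster here, measured 82920, 118289 and 116374 CPM at 6 h and 104782, 158157 and 118652 CPM at 12 h. It was higher at 12 h in each experiment with overlapping groups, and missed the threshold in edgeR (SE 0.121, adjusted p 0.0707) but passed it in DESeq2 (adjusted p 0.0488) and limma-voom (adjusted p 0.0263). let-7f-5p (0.17), miR-21a-5p (0.24), miR-27b-3p (0.31), let-7i-5p (0.18), miR-22-3p (0.15) and miR-26a-5p (0.09) had small positive log2 differences and miR-182-5p a negative one (-0.13), with adjusted p values of 0.313 to 0.793. With total counts as the scale the values of miR-22-3p and miR-26a-5p were -0.01 and -0.06.

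Families that share a seed or a transcript moved little as groups. For reference, 213 of all 414 tested miRNAs had a positive log2 difference, 140 with total counts and 260 with upper-quartile scaling, and medians are set beside 0.01 for all. In the let-7 family, regulators of growth and differentiation, 13 of 19 were positive (8 and 15 under these scalings; median 0.12). In the miR-17~92 and miR-106b~25 clusters, known for promoting proliferation, 11 of 16 were positive (9 and 14; median 0.20). The miR-30 family had 11 of 12 positive (6 and 11; median 0.18), the miR-181 family 6 of 8 (4 and 6; 0.14), the miR-26 family 4 of 5 (3 and 5; 0.25) and the group of miR-99, miR-100, miR-10 and miR-125 8 of 11 (6 and 9; 0.18). The miR-15 and miR-16 family had 4 of 11 positive (3 and 6; median -0.06), the miR-23, miR-27 and miR-24 clusters 4 of 11 (2 and 6; -0.03), the miR-29 family 3 of 5 (2 and 4; 0.09), the p53-regulated miR-34 family 3 of 5 (2 and 3; 0.12) and miR-221 and miR-222 2 of 4 (0 and 3; -0.02). edgeR called 0 members of any of these 11 lists. At an unadjusted p below 0.05 the lists held 0 to 4 members each, most in the miR-17~92 and miR-106b~25 clusters (3 up, 1 down). DESeq2 called 1 member of those clusters and 1 of the miR-26 family, and limma-voom 1 of those clusters.

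Their most abundant members give the scale of these differences. miR-16-5p measured 16124 CPM at 6 h and 16842 CPM at 12 h on average (log2 0.24, SE 0.117), and miR-322-5p, of the same family, had a log2 difference of 0.16 (SE 0.146). miR-25-3p (0.19), miR-181a-5p (0.28), miR-181b-5p (0.19), miR-29a-3p (0.22) and miR-34c-5p (0.42) were likewise not called in edgeR, with adjusted p values of 0.350 to 0.514. miR-30d-5p (0.13), miR-30a-5p (0.06), miR-125a-5p (-0.07), miR-23b-3p (-0.03), miR-26b-5p (-0.05), miR-29b-3p (-0.09) and miR-34a-5p (0.12) lay within 0.15 of 0 on the log2 scale.

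Lists with called members were small. The mesenchymal list, the miRNAs typical of fibroblasts and smooth muscle, had 12 tested members, of which 0 rose and 2 fell (miR-214-3p and miR-145a-5p), with a median of -0.07 and 5 positive (3 and 6 under the other scalings). miR-21a-5p and miR-143-3p, its most abundant members, were not called. The miR-130 and miR-301 family had 1 riser among 7 tested and 6 positive (4 and 6; median 0.18), and the miR-148 and miR-152 family 1 riser among 6 and 3 positive (2 and 5; median 0.01). Each of these shares stands beside 0.966% up and 1.21% down over all miRNAs.

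The Sfmbt2-type repeats, the miR-297, miR-466, miR-467 and miR-669 names of a large repeated cluster, had the lowest median of the families and clusters. The table holds 61 such names, of which 30 were tested; 7 had a positive log2 difference (4 and 10 under the other scalings), and the median was -0.37. edgeR called 0 between 6 h and 12 h, with 6 lower at an unadjusted p below 0.05, 2 called lower by DESeq2 and 1 by limma-voom, and the slope over the 4 times was called lower for 2 (miR-669a-3p and miR-466d-3p). The most abundant name, miR-669a-5p, had a log2 difference of 0.08 (SE 0.148), and the next, miR-669c-5p, one of -0.28 (SE 0.182). The members are near-identical, and the rule for reads that match several is not given in the sources used here, so single names are uncertain.

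miRNAs for which degradation by a target RNA has been reported formed another list. Of 9 tested, edgeR called 0 between 6 h and 12 h, 3 were positive (1 and 5 under the other scalings) and the median was -0.09. At an unadjusted p below 0.05, 2 were lower, and limma-voom called 1 of the list lower and DESeq2 0. The slope over the 4 times was called lower for 1 member, miR-335-3p (edgeR adjusted p 0.0487). miR-221-3p and miR-222-3p, the most abundant, had log2 differences of 0.04 (SE 0.129) and -0.08 (SE 0.151). miR-503-5p, named after its values were seen, had 16, 5 and 18 counts at 6 h and 2, 0 and 1 counts at 12 h (edgeR adjusted p 0.0525).

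The arms of a hairpin were compared because the discarded arm is short-lived. Both arms were tested in 127 hairpins, and the one with more counts in total RNA was taken as the major arm. The median log2 ratio of minor to major arm was -3.01, -3.44 and -3.43 at 6 h and -3.24, -3.44 and -3.33 at 12 h, with means of -3.29 ± 0.249 and -3.34 ± 0.0994 (SD, n = 3). The groups overlapped, and the slope over the 4 times was -0.02 per hour (exact permutation of times within experiments, two-sided p 0.509). With 5 CPM added in place of 1 the slope was -0.03 per hour (exact permutation p 0.0454). At 0 h the mean had been -2.87 ± 0.165, in the negative extraction the value was -3.40, and in total RNA it was -3.49 and -3.44. The minor arm was below its partner in the change from 6 h to 12 h in 61 of 127 hairpins. Among the called miRNAs were 2 minor arms, which fell, and 5 major arms, of which 3 rose and 2 fell, out of 127 and 120 tested.

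The last 6 h were then compared with the first 6 h, as the difference between the change from 6 h to 12 h and the change from 0 h to 6 h. edgeR called 5 miRNAs (1.21%), 4 with a higher late change (0.966%) and 1 with a lower one (0.242%), with 32 at an unadjusted p below 0.05. The 4 higher ones, miR-30d-3p, miR-92a-1-5p, miR-26b-3p and miR-125b-1-3p, are minor arms of well known guides. As a class the 127 minor arms differed little, with a median difference of 0.08 on the log2 scale against 0.04 for all 414 tested. The minor arm had the higher value in 76 of the 127 hairpins. The difference on the log2 scale was 1.85 (SE 0.439, adjusted p 0.0236) for miR-30d-3p, 1.72 (SE 0.282, adjusted p 0.000917) for miR-92a-1-5p, 1.62 (SE 0.362, adjusted p 0.0194) for miR-26b-3p and 1.19 (SE 0.233, adjusted p 0.00578) for miR-125b-1-3p. Without the block edgeR called 0, without experiment 1 also 0 and without experiment 3 only miR-92a-1-5p (adjusted p 0.0135). The value of miR-125b-1-3p without experiment 1 was 0.73 (edgeR adjusted p 0.417). The sequences with an entry in the table show that these 3 arms have different seeds.
miR-92a-1-5p: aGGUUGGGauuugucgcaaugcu
miR-26b-3p: cCUGUUCUccauuacuuggcuc
miR-125b-1-3p: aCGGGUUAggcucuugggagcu

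miR-92a-1-5p, from the Mir17hg transcript (chr14:115044427-115044506), went from 555, 837 and 561 CPM at 0 h to 106, 193 and 131 CPM at 6 h and to 68.0, 169 and 76.6 CPM at 12 h. The groups at 0 h and 6 h were far apart, while those at 6 h and 12 h overlapped. The negative extraction held 66.9 CPM from 19 counts, close to the lowest library at 12 h. Its other arm, miR-92a-3p, was the most abundant late miRNA.

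miR-125b-1-3p (chr9:41581926-41582002) measured 9900, 8987 and 6046 CPM at 0 h, 3673, 4737 and 3272 CPM at 6 h and 4234, 4772 and 3060 CPM at 12 h. The libraries at 0 h were above all later ones, and those at 6 h and 12 h overlapped fully. In the negative extraction its share was 4970 CPM, above its share in every library at 6 h and 12 h.

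miR-26b-3p, from an intron of Ctdsp1 (chr1:74394310-74394394), measured 65.2, 79.5 and 65.2 CPM at 0 h, 32.2, 29.9 and 37.4 CPM at 6 h and 49.4, 38.8 and 50.9 CPM at 12 h. All 3 libraries at 12 h lay above all 3 at 6 h and below all 3 at 0 h, but the change from 6 h to 12 h alone was not called (log2 0.66, edgeR adjusted p 0.116). The negative extraction held 56.4 CPM from 16 counts.

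miR-30d-3p measured 203, 130 and 86.9 CPM at 0 h, 68.2, 39.1 and 50.2 CPM at 6 h and 117, 23.8 and 69.1 CPM at 12 h. Its late change had opposite signs in the experiments, higher in experiments 1 and 3 and lower in experiment 2, where 27 counts remained. In the negative extraction it measured 66.9 CPM.

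miR-188-5p was the called miRNA with a lower late change, by -2.20 on the log2 scale (SE 0.515, edgeR adjusted p 0.0236). The libraries at 6 h enter both changes, so this call is not separate from its call between 6 h and 12 h. Before its fall it had measured 13.2, 6.96 and 9.75 CPM at 0 h against the 11.5 to 20 CPM at 6 h, higher at 6 h in each experiment with overlapping groups. The other 8 miRNAs called between 6 h and 12 h were not called for this difference, with adjusted p values from 0.0588 for miR-145a-5p to 0.998 for miR-301a-3p.

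**Figure D4:**
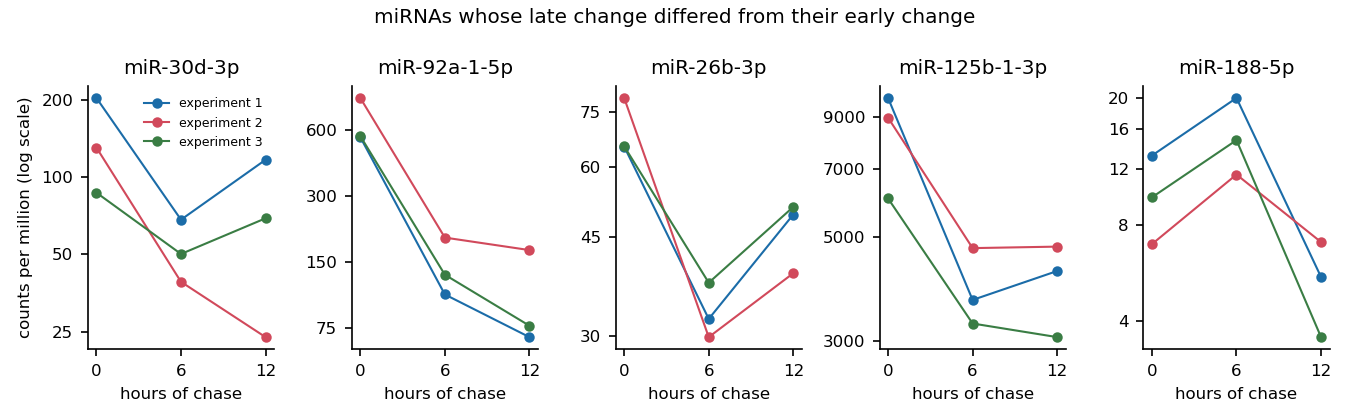
CPM (log scale) of the 5 miRNAs whose change from 6 h to 12 h differed from that from 0 h to 6 h, at 0, 6 and 12 h of chase, with a line for each experiment. The minor arms drop between 0 h and 6 h in every experiment and then level off, rise or fall further, while miR-188-5p is highest at 6 h in all 3 experiments.

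Summed over all miRNAs, the shares of the isoform classes shifted in the late chase. The share of counts with 3′ non-templated additions was 12.6, 14.8 and 14.9% at 6 h, 13.4, 15.9 and 15.4% at 8 h, 14.1, 18.0 and 16.1% at 10 h and 14.5, 18.0 and 15.8% at 12 h. It was higher at 12 h than at 6 h in each experiment, with overlapping groups, and its slope was 0.354 percentage points per hour (exact permutation of times within experiments, two-sided, adjusted p 0.00159 over 11 classes). Of the 11 classes 7 were called, and 0.000145 is the smallest raw p that the 13824 arrangements can give. The negative extraction had 12.8% and total RNA 12.0% and 14.2%. These sums weigh abundant miRNAs most. miR-92a-3p, the most abundant, carried 3′ non-templated additions on 47.4% of its counts at 6 h and 53.8% at 12 h (means of 3 experiments). It also took a larger share of all counts at 12 h in each experiment. Its part in the rise was not tested by itself.

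Within these additions the bases moved differently. Adenine additions, made by terminal nucleotidyltransferases, rose from 4.10% ± 0.240 at 6 h to 4.54% ± 0.313 at 12 h (SD, n = 3; exact permutation, adjusted p 0.0146), and mixed additions from 6.24% ± 1.03 to 8.02% ± 1.23 (exact permutation, adjusted p 0.00159). Uracil additions fell from 2.54% ± 0.142 to 2.25% ± 0.186 (exact permutation, adjusted p 0.00836). Guanine additions rose by 0.00187 points per hour (exact permutation, adjusted p 0.0439) but were not called under any of 5 alternatives, and cytosine additions were not called (adjusted p 0.754). In the negative extraction adenine, mixed and uracil additions took 4.62, 4.51 and 3.09%.

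Templated 5′ extensions, which by the reading of the class name would shift the seed, were a small class. Their share fell from 0.351% ± 0.0198 to 0.294% ± 0.0167 (SD, n = 3; exact permutation, adjusted p 0.00159), with all 3 libraries at 12 h below all 3 at 6 h. The canonical form fell from 48.6% ± 2.78 to 46.5% ± 1.14 (exact permutation, adjusted p 0.0408). Trimmed and 3′ templated forms were not called (each adjusted p 0.953). The 3′ non-templated total and the 5′ templated class were called under all 5 alternatives, which does not mean slopes of the same size. Over all miRNAs the slope of mixed additions was 0.316 points per hour, against 0.354 for the 3′ non-templated total that includes them. Without the 10 most abundant miRNAs the slope of the canonical form was 0.0793 (exact permutation, adjusted p 0.316), that of uracil additions 0.0037 (adjusted p 0.722) and that of mixed additions 0.0028 (adjusted p 0.722), so these 3 calls rested on abundant miRNAs.

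The abundant miRNAs differed in composition. miR-92a-3p carried mixed 3′ additions on 44.6, 44.7 and 47.7% of its counts at 6 h and 52.7, 49.1 and 54.8% at 12 h, the groups not overlapping, while none of the other 9 had more than 2.93% ± 0.363 at 6 h (miR-27b-3p; SD, n = 3). miR-99b-5p carried adenine additions on 10.2, 8.73 and 8.37% of its counts at 6 h and 12.7, 12.3 and 12.6% at 12 h, and uracil additions on 3.80, 4.80 and 4.74% and then 2.64, 3.53 and 2.91%. Its adenine share was higher and its uracil share lower in every library at 12 h than in any at 6 h. In let-7i-5p the adenine share was 13.2% ± 2.03 at 6 h and 15.1% ± 1.08 at 12 h (SD, n = 3). These were chosen after their values were seen and carry no test.

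**Figure D5:**
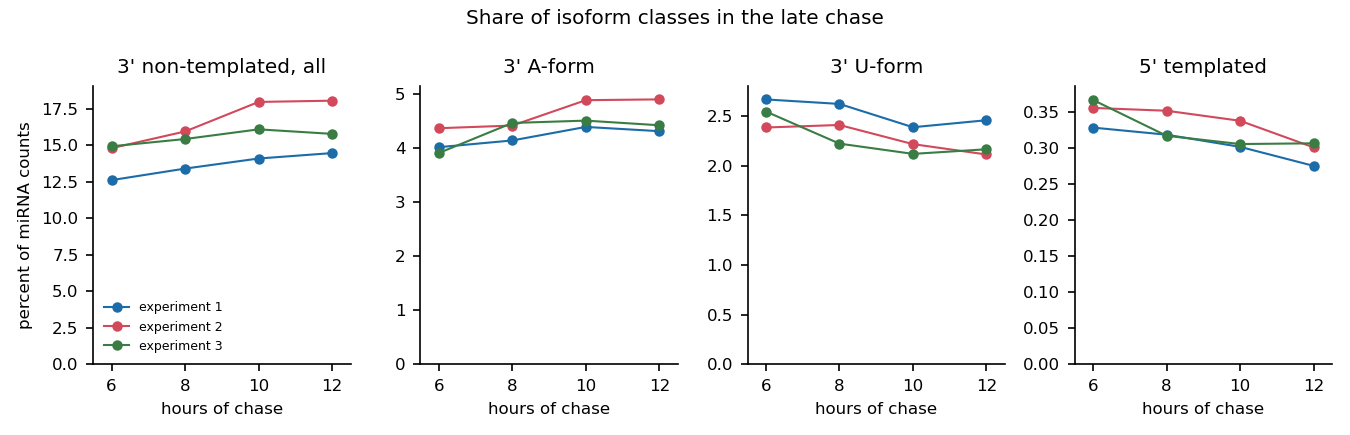
Percent of all miRNA counts (vertical axes, from 0) in 4 isoform classes against hours of chase, with a line for each experiment. The 3′ non-templated total and adenine additions are higher at 12 h than at 6 h in each experiment, and uracil additions and templated 5′ extensions are lower.

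The risers and the 4 fallers with a sequence also differed in base composition, described here because 4SU is built in at uridine positions. The remaining faller, miR-145a-5p, is not covered by this description. The 4 risers had a median of 7 uridines (6 to 8) and 40.9% G and C, the 4 fallers with a sequence a median of 3 uridines (1 to 5) and 60.5% G and C, and all 346 miRNAs with a sequence a median of 6 (0 to 12) and 50.0%. miR-335-5p was the exception among these 4 fallers, with 30.4% G and C. Over all miRNAs with a sequence, those with 0 to 3 uridines had a median log2 difference of -0.20 between 6 h and 12 h (11 of 39 positive), those with 4 to 6 one of 0.05 (84 of 155) and those with 7 or more one of 0.06 (88 of 152). Between 8 h and 10 h, in other libraries, the medians were -0.13, -0.06 and 0.03. The groups also differed in G and C content, with medians of 59.1, 50.0 and 45.5%, and those with 0 to 3 uridines had the lowest median level, 11 CPM, and which of these goes with the difference was not tested.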

How the data were processed

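Small RNA libraries of 3T9 cells were made with the Illumina TruSeq kit from RNA captured through biotin, per the labels' protocols. The submitters' processing notes name CASAVA 1.8.0. Not given in the sources used here are the aligner, miRNA annotation, genome build and isoform class definitions. The authors deposited unnormalised read counts, 7129 entries for 1221 mature miRNA names in 20 isoform classes. A duplicate entry (1) was removed, and 8 classes were summed per miRNA. Totals and repeats in the other classes equalled their parts in 25728 of 25728 cells. No pair of libraries was identical.

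Counts were tested with edgeR 4.0.16 (R 4.3.3): TMM, filterByExpr, quasi-likelihood F-test, 21 purified libraries, time point as a factor and experiment as a block, Benjamini-Hochberg over 414 miRNAs, threshold 0.05. CPM values use library totals, with no TMM factor, and their ratios can differ from the fitted values. The slope used the 12 late libraries. Isoform shares and arm ratios (1 CPM added) were tested by exact permutation of the times within experiments. Alternatives were DESeq2 1.42.0, limma-voom (limma 3.58.1), other scalings and filters, thinning and leaving out libraries. Models were tested on simulated data.

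The experiment numbers pair the libraries: deviations from the group means correlated at 0.440 to 0.485 in the 3 pairs of 6 h and 12 h libraries of an experiment. In the 6 other pairs they correlated at -0.398 to 0.109. Because group means were subtracted, positive values within experiments force negative ones on average between experiments, so this contrast is partly built in. The series' design text describes the experiments as independent replicates. With the experiment as a block, the edgeR p-values measure the scatter left around time and experiment effects. Differences in level between experiments are taken out. Reads carry no molecular identifiers, so floors cover counting error only. Hairpin positions are from GENCODE vM21 on GRCm38.

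The libraries, lists and comparisons were chosen with earlier results of these data known. Named were all called miRNAs of at least 10 CPM with the same direction in 3 experiments (at most 12 each way), the 10 most abundant, the 2 most abundant and the called members of each list (families, clusters, mesenchymal, Sfmbt2-type, reported target-directed degradation, and cell type markers), the other arms of called miRNAs and those called for late minus early change.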

Additional observations from a re-analysis of the deposited data

Results flagged for a closer look

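Among the results, 5 miRNAs stood out because their change from 6 h to 12 h differed from their change from 0 h to 6 h by a test of that difference (edgeR, time and experiment in the model). The difference on the log2 scale, late minus early, was 1.72 for miR-92a-1-5p, 1.19 for miR-125b-1-3p, 1.62 for miR-26b-3p and 1.85 for miR-30d-3p, all minor arms, and -2.20 for miR-188-5p. Of these, miR-26b-3p had 3 libraries at 12 h above all those at 6 h, and miR-188-5p 3 libraries at 12 h below all those at 6 h. miR-30d-3p changed in opposite directions in the experiments after 6 h. In the negative extraction, a single library, the shares of the 4 minor arms were 66.9, 4970, 56.4 and 66.9 CPM. For miR-125b-1-3p and miR-26b-3p this share was above that in each library at 6 h and 12 h. The part of this background in the result was not tested.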

How the results depend on the processing

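The experiment block decided the counts of calls: without the block edgeR called 0 miRNAs between 6 h and 12 h (9 with it), 0 for the slope over the late times (12 with it) and 0 for the late minus early change (5 with it). For 12 h against 6 h, thinning to the shallowest depth gave 5 calls, the 6 compared libraries alone 2, and leaving out libraries or experiments 0 to 14. For the slope, total counts gave 30 calls, upper-quartile scaling 19, DESeq2 25, no filter on low counts 20, and leaving out an experiment 5 to 19. For the late minus early change DESeq2 gave 10 calls and leaving out an experiment 0 to 6. Between 8 h and 10 h, no filter on low counts gave 1 call against 0. The isoform classes gave 3 calls without the 10 most abundant miRNAs and 3 to 6 with an experiment left out, against 7. The arm ratio had a slope of -0.0294 per hour with 5 CPM added (exact permutation p 0.045), against -0.0209. Slopes that changed sign were those of the canonical form (0.0793) and uracil additions (0.0037) without the 10 most abundant miRNAs, and of 5′ non-templated forms (0.00808) with each miRNA weighted equally. The cause of these differences was not tested, except that thinned, canonical and smaller sets hold fewer counts or libraries. All 9 called miRNAs kept their sign under the alternatives run, while 28 of the 49 named miRNAs that were not called changed sign under at least 1. Depth limits the rarest miRNAs: miR-188-5p had 8 to 18 counts in the libraries at 12 h.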

Other observations

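Several miRNAs outside the rule for naming had groups at 6 h and 12 h that did not overlap in CPM without passing the adjusted threshold in edgeR, and were picked after their values were seen. miR-100-5p, a relative of miR-99 and miR-125, had 13657, 4126 and 15844 counts at 6 h and 7619, 1649 and 4658 at 12 h, a log2 difference of -0.53 (adjusted p 0.116). miR-501-3p, from the Clcn5 intron that also holds miR-188-5p, had a log2 difference of -0.65 (adjusted p 0.116). miR-192-5p had a log2 difference of 0.43 (adjusted p 0.211). miR-466h-3p, of the Sfmbt2-type repeats, was also picked after its values were seen, but its groups overlapped in CPM. It had 96, 12 and 171 counts at 6 h and 26, 6 and 37 at 12 h (edgeR adjusted p 0.0707). In all, 28 of 414 miRNAs had groups that did not overlap.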
